A study of Homo sapiens with 8 samples.

Results

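Metal ion carriers and metallothioneins were examined in hCMEC/D3 cells, which were derived from endothelium of human brain microvessels and stand in for the blood-brain barrier in culture. The line is a clone immortalised with telomerase and the SV40 large T antigen, so its levels are those of cultured, dividing cells. The members were the listed genes of the zinc, copper, iron and magnesium carrier families SLC11, SLC30, SLC31, SLC39, SLC40 and SLC41, the metallothioneins MT1 to MT4, and the copper pumps ATP7A and ATP7B. They were chosen by symbol alone and numbered 46 of the 23346 genes in the table. Polyadenylated RNA of 8 replicates was sequenced, no treatment or genotype is named in the labels, and all 8 formed 1 group, so no comparison between conditions was possible. The labels did not say whether the replicates were separate cultures, so p-values measure only the spread between these samples, which may be technical. In bulk RNA, fewer cells that express a gene and less of its RNA per cell cannot be told apart.

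Metals reach brain cells largely through the endothelium, which takes them up from blood and passes them on. Zinc enters the cytosol through importers of the SLC39 (ZIP) family and leaves it through the SLC30 (ZnT) family, across the plasma membrane or the membranes of organelles. Metallothioneins are small cytosolic proteins, rich in cysteine, that bind zinc and copper. Excess zinc activates the transcription factor MTF1, which binds metal response elements and induces metallothionein genes and SLC30A1. Copper enters through SLC31A1 and is exported by ATP7A and ATP7B, and iron enters the cytosol through SLC11A2 and leaves the cell through SLC40A1.

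Total counts per library were 69388544 to 90205244. All counts were even, so the smallest step of 2 counts was taken as 1 read pair and equalled 0.0222 to 0.0293 CPM (counts scaled to a common library size). The labelled cell type was checked on 10 endothelial markers, of which 10 were detected, with a summed level of 1898 to 3541 CPM. Of these, CLDN5 alone varied more than genes of like abundance (edgeR goodness-of-fit test, Benjamini-Hochberg adjusted p = 0.000736). It had 237 and 252 CPM in replicates 2 and 8 against 71.5 to 94.7 CPM in the others. Astrocyte markers gave 0 of 5 detected genes, with AQP4 at 0 counts, and hepatocyte markers gave 0 of 3. Detected markers of other types were CD68 (1 of 5 microglial genes), TUBB3 and SYT1 (2 of 5 neuronal genes), KRT8 and KRT19 (2 of 6 epithelial genes) and 4 of 6 mural genes, of which NOTCH3 and KCNJ8 were not detected. The summed marker levels ranged over the libraries from 0.820 to 1.05 CPM for astrocyte, 0.155 to 0.382 for hepatocyte, 47.5 to 84.7 for microglial, 51.7 to 66.5 for neuronal, 26.4 to 37.6 for epithelial and 45.3 to 70.2 for mural genes. Their part in the results below was not tested.

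The libraries differed in how level depended on transcript length. When each library's log2 deviations from the gene means were set against log2 length, the slopes of replicates 1 to 8 came to 0.14, -0.20, 0.13, 0.13, 0.08, 0.14, -0.10 and -0.31. Replicates 2, 7 and 8 therefore gave relatively more counts to short transcripts. On the deposited values made by conditional quantile normalisation (CQN), which adjusts for length and GC content, every slope lay between -0.00440 and 0.00524. Metallothionein transcripts are short and several carriers are long, so CQN values are given beside the CPM values of the members whose libraries differed most.

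Of the 46 members, 33 (71.7%) were detected, meaning at least 1 CPM in all 8 libraries, against 51.3% of all listed genes. Levels of different genes were compared as RPKM, that is CPM per kilobase of reference transcript. The detected members had a median of 14.7 RPKM, and all detected genes with a length had a median of 13.1 RPKM. The detected genes comprised 7 of 12 metallothioneins, 10 of 14 SLC39 importers, 7 of 10 SLC30 exporters, both SLC31 genes, both ATP7 pumps, 1 of 2 SLC11 genes, SLC40A1 and all 3 SLC41 genes.

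**Figure D1:**
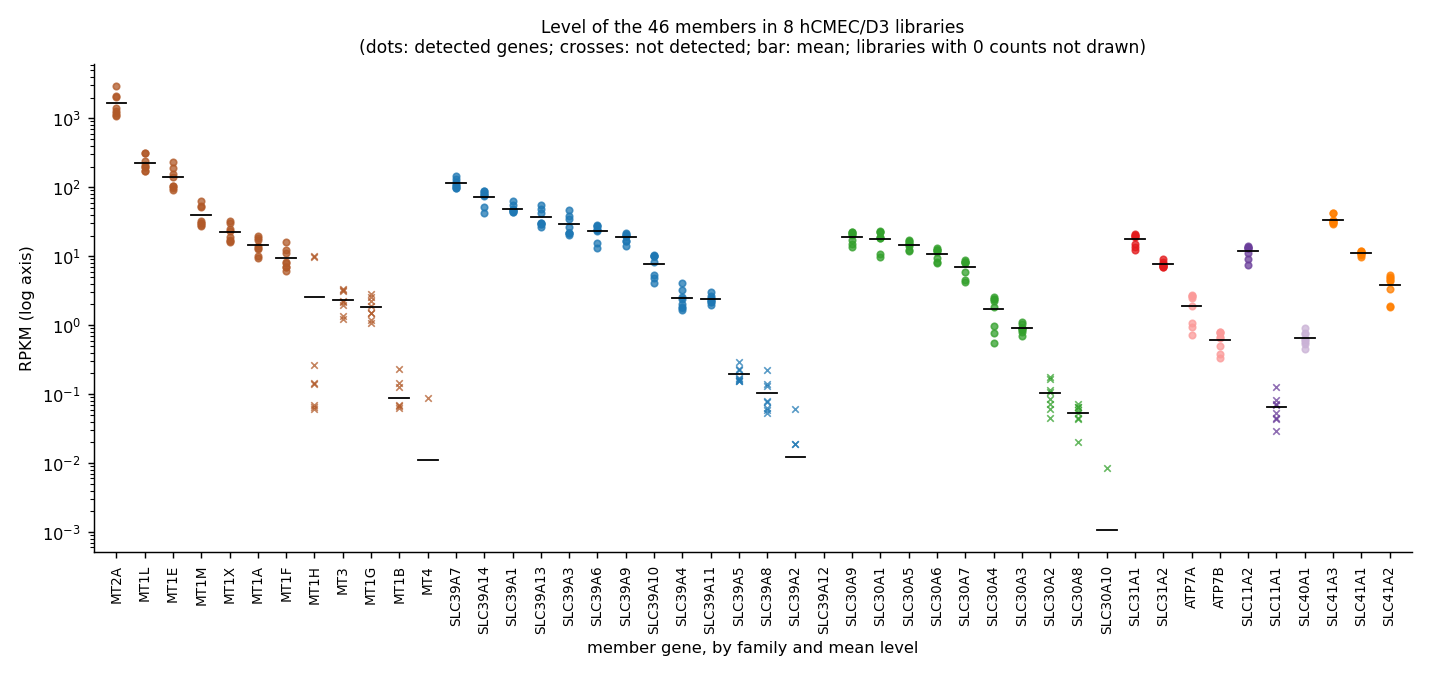
Level of each of the 46 members in RPKM on a log axis, by family, with a dot or cross for each of the 8 libraries and a bar for the mean. MT2A stood highest at a mean of 1652 RPKM, and SLC39A12 had no counts in any library and so has no symbol.

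The metallothionein transcripts were dominated by MT2A. They are encoded in a cluster on the long arm of chromosome 16. MT2A (chromosome 16, 56642478 to 56643409, plus strand, 3 exons; GRCh37 here and below) had 428, 821, 481, 517, 574, 449, 850.3 and 1182 CPM in replicates 1 to 8. It was highest in replicates 8, 7 and 2, and lowest in replicate 1. Its mean was 663 ± 265 CPM, or 1652 ± 662 RPKM (SD, n = 8). MT2A made up 77.96% ± 1.42 of the summed CPM of the 12 metallothioneins (SD, n = 8), from 76.2% in replicate 5 to 80.2% in replicate 8, so the makeup of the pool moved little between libraries.

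MT1E (56659585 to 56661024) and MT1L (56651373 to 56652730) followed. MT1E had 68.1, 115, 76.7, 76.6, 106, 71.9, 144 and 175 CPM in replicates 1 to 8. MT1L, which the reference annotates as a transcribed unprocessed pseudogene, had 32.3, 45.0, 36.98, 36.0, 39.8, 32.3, 58.7 and 58.5 CPM. The length of MT1L in the reference is only 186 nt, within a longer deposited gene span, so its 228 RPKM is unreliable and no rank was read from it. MT1E reached 140 ± 52.2 RPKM (SD, n = 8) with a reference length of 746 nt.

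The other detected isoforms were MT1M, MT1X, MT1A and MT1F. MT1M had 10.8, 20.7, 11.2, 11.9, 12.9, 12.2, 21.0 and 25.4 CPM in replicates 1 to 8, and MT1X had 6.84, 9.24, 7.60, 6.499, 10.03, 6.94, 13.2 and 12.3 CPM. MT1A had 5.17, 6.91, 5.01, 3.80, 5.55, 3.95, 7.79 and 7.40 CPM, and MT1F had 2.64, 5.19, 2.96, 3.47, 3.42, 2.94, 4.80 and 6.93 CPM. Each of these was highest in replicate 7 or 8. In RPKM they descended from 39.6 ± 14.3 for MT1M through 22.5 ± 6.37 for MT1X and 14.4 ± 3.85 for MT1A to 9.51 ± 3.48 for MT1F (SD, n = 8). The mean ± SD ranges of neighbours in this order overlapped, although the order was the same within every library.

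MT2A exceeded MT1E by 3.55 ± 0.12 and MT1X by 6.15 ± 0.27 on the log2(RPKM + 0.1) scale (SD, n = 8), in 8 of 8 libraries. The first ratio was 2.77 on the CQN values and 2.66 on CPM, where the long MT1E reference transcript plays no part. The paralogs are close in sequence. Of the 50-base windows of the reference transcripts, 11.1% in MT2A, 10.3% in MT1E, 18.0% in MT1X, 14.6% in MT1M, 5.76% in MT1A and 6.12% in MT1F also occurred in a transcript of another locus. How such reads were counted is not given in the sources used here, so the isoform levels are uncertain to that extent.

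Promoter windows of 300 bases (250 before to 50 after the start, RefSeq, GRCh38.p14) were searched for the metal response element letters TGCACNC and TGCGCNC on both strands, overlaps allowed. They are shown because the metallothioneins moved together between libraries on CPM, and for SLC30A1, the exporter that shares the MTF1 pathway. That movement was smaller on CQN values (below), and whether the matches bear on it was not tested. Results are given for the windows of 35 members. Matches are in capitals, and each window is written 5′ to 3′ on the gene's strand. The windows span chr16:56608334-56608633 (plus) for MT2A, chr16:56682220-56682519 (plus) for MT1X, chr16:56669564-56669863 (plus) for MT1H and chr1:211579112-211579411 (minus) for SLC30A1.
MT2A: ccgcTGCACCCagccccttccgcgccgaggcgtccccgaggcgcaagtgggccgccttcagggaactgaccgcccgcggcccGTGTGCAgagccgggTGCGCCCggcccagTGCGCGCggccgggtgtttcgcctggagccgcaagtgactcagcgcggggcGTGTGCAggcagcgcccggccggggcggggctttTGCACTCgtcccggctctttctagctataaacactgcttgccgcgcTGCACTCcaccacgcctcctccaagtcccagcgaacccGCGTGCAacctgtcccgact
MT1X: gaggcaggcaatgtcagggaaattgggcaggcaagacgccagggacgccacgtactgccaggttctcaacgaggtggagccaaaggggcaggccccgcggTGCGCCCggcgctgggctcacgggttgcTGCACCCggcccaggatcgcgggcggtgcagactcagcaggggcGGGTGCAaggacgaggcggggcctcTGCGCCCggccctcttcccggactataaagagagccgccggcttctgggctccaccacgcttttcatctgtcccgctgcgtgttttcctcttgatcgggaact
MT1H: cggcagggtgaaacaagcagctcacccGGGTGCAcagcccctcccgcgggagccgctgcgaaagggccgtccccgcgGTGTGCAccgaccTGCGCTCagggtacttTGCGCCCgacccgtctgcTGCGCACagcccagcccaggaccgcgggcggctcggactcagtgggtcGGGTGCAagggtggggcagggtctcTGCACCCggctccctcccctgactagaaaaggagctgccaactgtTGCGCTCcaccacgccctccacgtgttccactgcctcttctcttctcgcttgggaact
SLC30A1: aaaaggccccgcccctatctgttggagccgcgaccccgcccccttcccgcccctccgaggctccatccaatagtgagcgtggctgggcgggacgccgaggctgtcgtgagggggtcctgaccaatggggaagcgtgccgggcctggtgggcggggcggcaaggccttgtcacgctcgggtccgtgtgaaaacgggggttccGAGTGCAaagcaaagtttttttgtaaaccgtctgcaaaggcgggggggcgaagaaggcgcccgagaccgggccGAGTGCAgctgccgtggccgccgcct

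MT2A and MT1H each held 8 matches, MT1X held 4 and SLC30A1 held 2. Of all 27305 promoter windows of this length, 29.3% held at least 1 match, 8.59% at least 2, 2.27% at least 3, 0.593% at least 4 and 0.022% at least 8. Among the 35 members counted, 18 held at least 1 match and 6 held at least 3. The carriers among those 6 comprised SLC30A2 alone, beside the metallothioneins MT2A, MT1X, MT1H, MT1B and MT4. The metallothioneins MT1A, MT1E, MT1F, MT1G, MT1L, MT1M and MT3 were not searched. Neither was the carrier SLC31A2. The members on chromosome 8, the carriers SLC30A8, SLC39A4 and SLC39A14, were left out of the member counts. The 27305 windows were not limited in this way. The counts over members therefore leave out most of the detected metallothioneins and say nothing on these carriers. A match describes letters and was not read as a bound site.

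On CPM the 7 detected metallothioneins were all above their own means in replicates 2, 7 and 8. On CQN values all 7 still were in replicate 7, but not in replicates 2 and 8. Their SDs over libraries were 0.35 to 0.53 on log2(CPM + 0.1) and 0.09 to 0.21 on CQN values. The sum over all 12 metallothioneins was 555, 1029, 622, 657, 753, 579.8, 1102 and 1474 CPM in replicates 1 to 8, with a mean of 847 ± 326 CPM (SD, n = 8). The 3 highest sums were those of replicates 8, 7 and 2, the libraries with negative length slopes, and the other 5 averaged 633 ± 77.7 CPM (SD, n = 5). On CQN values MT2A lay between 10.36 and 10.61 with an SD of 0.09. The mean CQN value of the 7 genes was 5.87, 5.82, 5.90, 5.96, 6.08, 5.92, 6.16 and 5.94 in replicates 1 to 8, so replicate 7 was still highest, but replicate 2 was now the lowest.

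**Figure D2:**
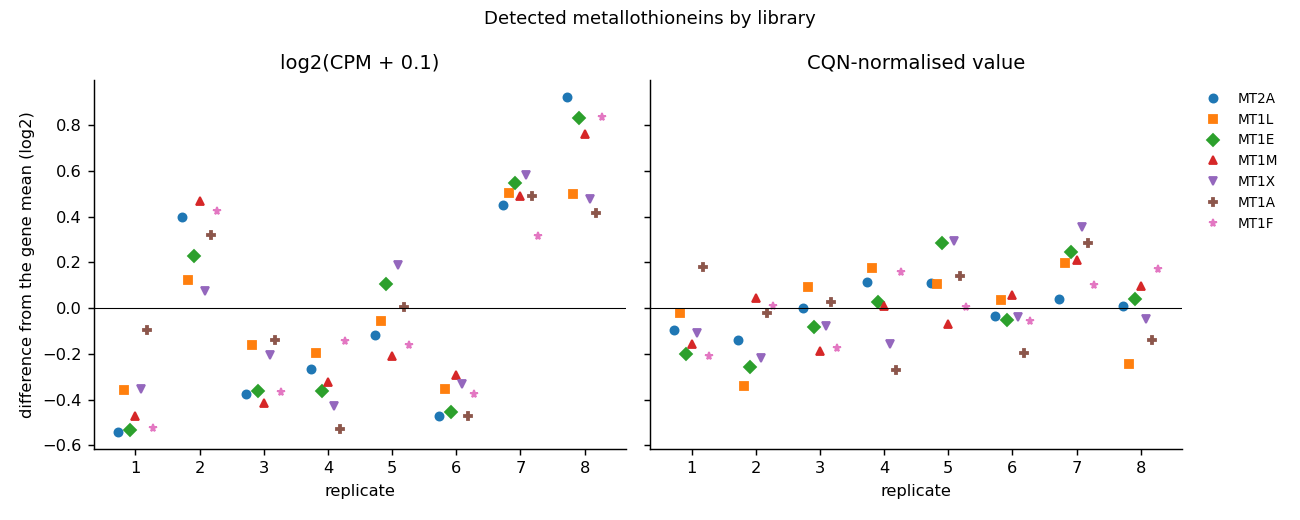
Difference of each library from the gene mean (log2) for the 7 detected metallothioneins, on log2(CPM + 0.1) at left and on CQN values at right, with replicates 1 to 8 on the horizontal axis. At left all 7 genes lie above their mean in replicates 2, 7 and 8. At right all 7 still do in replicate 7, but not in replicates 2 and 8 (MT2A between 10.36 and 10.61).

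MT1H behaved unlike its neighbours. MT1H (chromosome 16, 56703726 to 56705041, plus strand, 3 exons) lies between MT1G and MT1X. It had 354 counts in replicate 2 and 340 in replicate 8, and 4, 2, 2, 8, 4 and 2 counts in replicates 1, 3, 4, 5, 6 and 7. In CPM these were 3.92 and 4.02 in replicates 2 and 8, and at most 0.104 in the other 6 libraries, so the values did not overlap. Replicate 7, which shared the higher metallothionein levels of replicates 2 and 8 on CPM, had 0.0244 CPM.

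The adjacent MT1G had 0.470, 0.598, 0.603, 1.02, 0.752, 0.420, 0.901 and 1.11 CPM in replicates 1 to 8, and replicate 2 was not high there. MT1X, on the other side, ranged from 6.499 to 13.2 CPM and was highest in replicate 7. Of the 50-base windows of MT1H, 20.4% occurred elsewhere, in MT1G and MT1HL1, so most of the transcript was distinct from other loci. MT1H fell below the detection level in 6 libraries and was therefore not part of the main test of variation. With every gene of at least 1 count tested, it varied above the trend (edgeR goodness-of-fit test, Benjamini-Hochberg adjusted p = 4.11e-43).

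**Figure D3:**
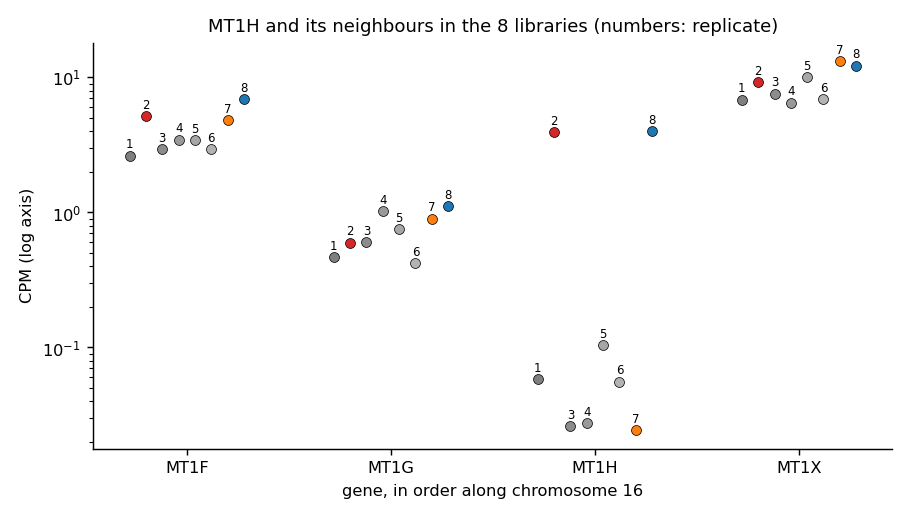
CPM on a log axis of MT1H and the nearest other metallothioneins, MT1F, MT1G and MT1X, with each library numbered. Replicates 2 and 8 lie near 4 CPM for MT1H and the other 6 at or below 0.104 CPM, whereas the libraries of each neighbour stay together.

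The remaining metallothioneins were low. MT3, an isoform known from brain, had a mean of 0.948 ± 0.338 CPM (SD, n = 8), with 3 libraries above 1 CPM. MT1G had a mean of 0.734 ± 0.255 CPM. MT1B had 22 counts over all libraries and none in 2 of them, and MT4, an epithelial isoform, had 2 counts in replicate 8 alone. A count of 0 allows up to 0.0665 to 0.0880 CPM, taking 3 read pairs as the limit and counting error only.

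Among the zinc importers, SLC39A7 and SLC39A14 were the highest. SLC39A7 (ZIP7; chromosome 6, 33168603 to 33172214, plus strand, 8 exons), which releases zinc from the endoplasmic reticulum, had 97.2 to 146 RPKM and a mean of 114 ± 17.8 (SD, n = 8). In CPM it had 234, 287, 213, 214, 232, 209, 257 and 315 in replicates 1 to 8, highest in replicates 8 and 2. On CQN values it was among the steadiest members, between 8.86 and 8.98 (SD 0.04). SLC39A14 (ZIP14; chromosome 8, 22224762 to 22291640), which imports zinc, manganese and iron at the plasma membrane, had 143, 87.3, 153, 137, 151, 133, 126 and 71.2 CPM in replicates 1 to 8. Replicates 2 and 8 were the lowest and lay apart from the other 6, also on CQN values, at 6.84 and 6.65 against 7.18 to 7.33. Its mean was 73.4 ± 17.6 RPKM with a length of 1706 nt within the deposited span, and 26.9 RPKM with the canonical transcript of 4663 nt, so its place near the top depended on the transcript.

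SLC39A1 and SLC39A3 are importers of the plasma membrane, and SLC39A13 acts in the secretory pathway. They had means of 49.2 ± 7.23, 29.0 ± 9.84 and 36.6 ± 10.4 RPKM (SD, n = 8). The means of SLC39A13 and SLC39A3 differed by less than their SDs, although SLC39A13 was the higher within every library. SLC39A13 had 62.6, 112, 68.5, 70.9, 71.7, 69.3, 99.4 and 128 CPM in replicates 1 to 8, and SLC39A7 exceeded it by 1.67 ± 0.20 (log2 RPKM ratio, SD, n = 8) in 8 of 8 libraries. SLC39A3 had 29.3, 53.0, 30.2, 29.3, 35.9, 27.8, 47.8 and 63.4 CPM. Replicates 2, 7 and 8 were highest for both, as for the metallothioneins. For SLC39A13 this spread was gone on CQN values (SD 0.06), and for SLC39A3 it remained in part (SD 0.29), with replicates 8, 7 and 2 still the highest at 6.18, 6.06 and 5.97.

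SLC39A6 and SLC39A10, which form a heteromer at the plasma membrane, were unequal. SLC39A6 (chromosome 18, 33688494 to 33709357) had 98.7, 55.4, 99.6, 89.3, 100.5, 86.6, 82.0 and 46.8 CPM in replicates 1 to 8. SLC39A10 (chromosome 2, 196521532 to 196602426) had 55.3, 26.3, 53.6, 53.5, 44.1, 53.3, 28.8 and 21.7 CPM. On CPM both were lowest in replicate 8. On CQN values SLC39A6 was again lowest in replicates 8 and 2 (6.31 and 6.51), whereas SLC39A10 was lowest in replicate 7 (4.998), then 8 (5.08) and 2 (5.18). The log2 RPKM ratio of SLC39A10 to SLC39A6 was -1.58 ± 0.27 (SD, n = 8), so SLC39A6 was higher by 3.00-fold, in 8 of 8 libraries.

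SLC39A9, a zinc importer of the Golgi, had 18.8 ± 2.64 RPKM (SD, n = 8). SLC39A4, the intestinal zinc importer mutated in acrodermatitis enteropathica, and SLC39A11 were the lowest detected importers, at 2.45 ± 0.828 and 2.38 ± 0.334 RPKM. SLC39A8 (ZIP8), the closest relative of SLC39A14, was not detected, at 0.324 ± 0.183 CPM (0.166 to 0.700) or 0.103 RPKM. SLC39A14 was the higher of that pair in 8 of 8 libraries. SLC39A5 had 0.387 ± 0.101 CPM, SLC39A2 had 10 counts over 3 libraries, and SLC39A12 had no count in any library.

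Among the zinc exporters, SLC30A9, SLC30A1 and SLC30A5 had means of 19.2 ± 3.56, 18.0 ± 5.30 and 14.7 ± 1.92 RPKM (SD, n = 8), and SLC30A9 and SLC30A1 differed by less than their SDs. SLC30A1 (ZnT1; chromosome 1, 211748381 to 211752099, minus strand, 2 exons), the exporter of the plasma membrane, had 36.6, 21.5, 45.4, 37.9, 45.98, 47.1, 37.2 and 19.4 CPM in replicates 1 to 8. Replicates 2 and 8 were lowest and did not overlap the other 6. On CQN values they stayed apart, at 5.39 and 5.19 against 6.24 to 6.77. Whether this gap depends on the transcript length that CQN assumed was not tested. With an offset for length and GC content (below), SLC30A1 varied above the trend on the length inside the deposited span. With the canonical length it did not.

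SLC30A9 had 73.96, 48.1, 73.2, 69.8, 67.9, 65.8, 54.9 and 44.4 CPM in replicates 1 to 8, lowest in replicates 8 and 2, and on CQN values it lay between 6.31 and 6.56, lowest in replicates 8 and 7. With canonical transcripts the means were 10.1 RPKM for SLC30A9, 1.03 for SLC30A4 and, among the magnesium carriers, 2.53 for SLC41A2. The SLC30A1 mean was 6.18 RPKM with the canonical transcript of 5893 nt, against the 2018 nt inside the deposited span, so its rank among the exporters also depended on the transcript. SLC39A14 exceeded SLC30A1 by 2.04 ± 0.16 on the log2 RPKM scale (SD, n = 8), in 8 of 8 libraries. On CQN values the log2 ratio of SLC30A1 to SLC39A14 was -0.91, in the same direction.

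SLC30A5 and SLC30A6 form a heterodimer that loads zinc into the early secretory pathway, and SLC30A7 does so in the Golgi. SLC30A5 had 65.5, 46.8, 67.8, 61.0, 61.0, 64.1, 55.4 and 49.3 CPM in replicates 1 to 8, SLC30A6 had 59.0, 37.9, 62.0, 58.4, 55.1, 58.3, 44.8 and 39.2 CPM, and SLC30A7 had 64.6, 35.8, 70.3, 62.3, 65.96, 65.2, 46.1 and 33.1 CPM. All 3 were lowest in replicates 2 and 8, and on CQN values replicate 8 was the highest for each (SD 0.13, 0.07 and 0.10). SLC30A5 exceeded SLC30A6 by 0.45 ± 0.10 and SLC30A7 by 1.10 ± 0.24 (log2 RPKM ratio, SD, n = 8), in 8 of 8 libraries. The lead over SLC30A7, whose transcript is the longer, depended on dividing by length: on CPM the log2 ratio was 0.13 (exact sign-flip permutation p = 0.242, adjusted p = 0.258, n = 8) and on CQN values 0.36.

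SLC30A4 (chromosome 15, 45774680 to 45815002, minus strand, 8 exons), an exporter into endosomal compartments, had the highest coefficient of variation on CPM among the detected exporters, while on CQN values SLC30A1 had the larger SD (0.60 against 0.53). It had 10.7, 3.30, 10.1, 9.64, 7.83, 10.2, 4.16 and 2.37 CPM in replicates 1 to 8. Replicates 2, 7 and 8 were lower than the other 5, without overlap, and on CQN values they stayed apart, at 2.41, 2.55 and 2.14 against 3.16 to 3.44. As for SLC30A1, SLC30A4 did not vary above the trend with the canonical length in the offset (below). SLC30A4 overlaps the listed pseudogene HMGN2P46. SLC30A3, which fills synaptic vesicles with zinc, was detected at 1.86 ± 0.279 CPM (SD, n = 8). SLC30A2 and SLC30A8, which serve milk secretion and insulin granules, had 0.241 ± 0.112 and 0.289 ± 0.0898 CPM. The manganese exporter SLC30A10 had 2 counts, in replicate 8 alone, against 1640 to 3548 counts of SLC30A1.

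**Figure D4:**
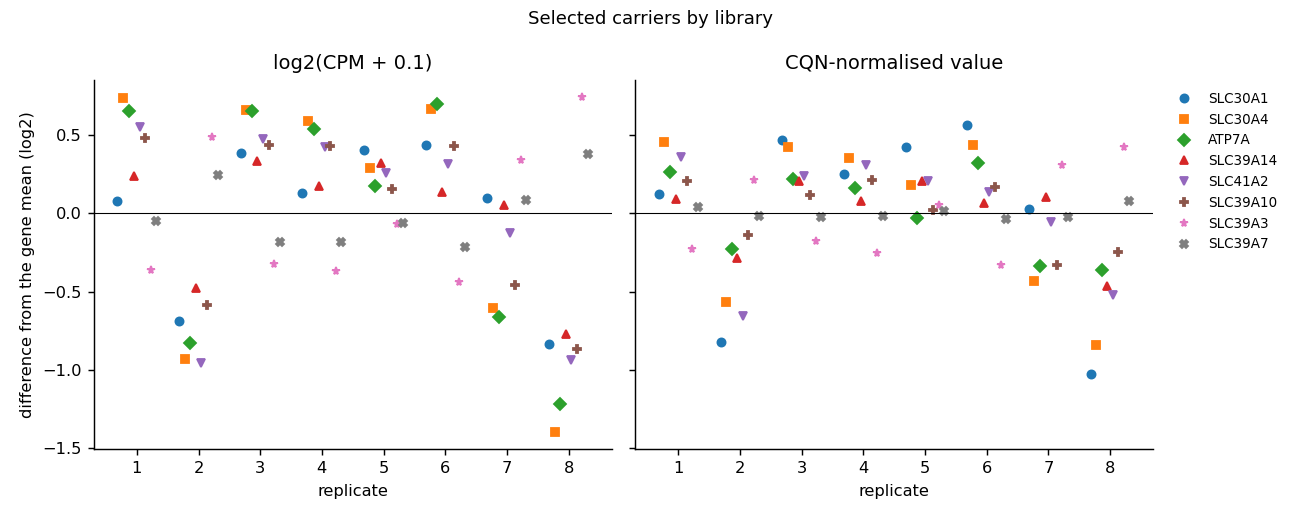
Difference of each library from the gene mean (log2) for 8 carriers, on log2(CPM + 0.1) at left and on CQN values at right, by replicate. SLC30A1 and SLC30A4 stay low in replicates 2 and 8 on both scales, while SLC39A7 is level at right (SD 0.04).

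Of the copper importers, SLC31A1 was the higher. SLC31A1 (CTR1; chromosome 9, 115983808 to 116026772, plus strand, 5 exons), the high-affinity importer, had 96.5, 64.1, 99.1, 93.3, 93.1, 91.0, 71.6 and 58.9 CPM in replicates 1 to 8. SLC31A2 (CTR2), its relative on endosomes and lysosomes, had 14.4, 12.0, 13.5, 12.502, 12.0, 12.49, 15.8 and 12.9 CPM. On CPM SLC31A1 was lowest in replicates 8 and 2, and SLC31A2 in replicates 2 and 5. On CQN values SLC31A1 was lowest in replicates 7 and 8 (6.51 and 6.52), and SLC31A2 in replicates 8 and 2 (4.65 and 4.67). The means were 17.5 ± 3.35 and 7.66 ± 0.766 RPKM, with a log2 ratio of 1.16 ± 0.33 (SD, n = 8) in 8 of 8 libraries.

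The copper pumps were low. ATP7A (chromosome X, 77166194 to 77305892, plus strand, 23 exons), the pump lost in Menkes disease, had 22.8, 8.11, 22.8, 21.1, 16.3, 23.5, 9.11 and 6.17 CPM in replicates 1 to 8. Replicates 2, 7 and 8 lay below the other 5 without overlap, also on CQN values, at 3.33, 3.22 and 3.20 against 3.53 to 3.88. ATP7B (chromosome 13, 52506806 to 52585630), the pump lost in Wilson disease, had 5.11, 2.55, 4.51, 5.23, 4.33, 5.18, 3.29 and 2.20 CPM, with the same 3 libraries lowest, also on CQN values (1.69, 1.96 and 1.71 against 2.06 to 2.24). The means were 1.91 ± 0.870 and 0.614 ± 0.184 RPKM, and ATP7A exceeded ATP7B by 1.40 ± 0.35 (log2 RPKM ratio, SD, n = 8) in 8 of 8 libraries, or by 0.80 with a pseudocount of 1. The ATP7A transcript, at 8488 nt, was the longest of the detected members. ATP7A contains the listed gene PGAM4.

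Of 10 copper chaperones, cuproenzymes and assembly factors, 10 were detected. The highest were SOD1 at 256.4 ± 61.4, LOXL2 at 110 ± 6.10 and ATOX1, which hands copper to the ATP7 pumps, at 93.5 ± 35.7 RPKM (SD, n = 8). None of the 10 varied above the trend.

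For iron and manganese, SLC11A2 (DMT1; chromosome 12, 51373566 to 51422058, minus strand, 17 exons) had 50.6, 34.7, 49.8, 49.4, 49.0, 53.1, 41.3 and 28.2 CPM in replicates 1 to 8. It moves ferrous iron out of endosomes, and its mean was 11.9 ± 2.37 RPKM (SD, n = 8). Replicates 8, 2 and 7 were lowest on CPM, whereas its CQN values lay between 5.26 and 5.51. SLC11A1 (NRAMP1), the phagosomal relative of macrophages, was not detected, with 0.293, 0.465, 0.105, 0.165, 0.155, 0.252, 0.195 and 0.260 CPM in replicates 1 to 8 and a mean of 0.236 ± 0.112 (SD, n = 8).

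SLC40A1 (ferroportin; chromosome 2, 190425316 to 190445537, minus strand, 8 exons), the iron exporter, was detected at a low level, with 2.99, 1.88, 1.76, 2.04, 2.13, 2.55, 1.49 and 2.48 CPM in replicates 1 to 8. No library stood apart on CPM, and on CQN values replicate 8 was the highest at 2.32 against 1.19 to 1.94. The mean was 0.650 ± 0.146 RPKM, and SLC11A2 exceeded it by 3.99 ± 0.40 (log2 RPKM ratio, SD, n = 8) in 8 of 8 libraries.

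Of 19 other iron genes, 13 were detected, and the highest were FTL at 1252 ± 414, FTH1 at 732 ± 263 and PCBP1 at 173 ± 22.6 RPKM (SD, n = 8). Only TFRC, the transferrin receptor, varied above the trend (edgeR goodness-of-fit test, Benjamini-Hochberg adjusted p = 0.00305). It had 461, 167, 494, 436, 544, 426, 408 and 127 CPM in replicates 1 to 8. Replicates 2 and 8 were lowest on CPM, as for SLC39A14 and SLC30A1, and its SD on CQN values was 0.55.

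All 3 SLC41 magnesium carriers were detected. SLC41A3 had 46.5, 61.5, 43.5, 46.1, 47.0, 44.8, 49.2 and 63.0 CPM in replicates 1 to 8, highest in replicates 8 and 2 (6.36 to 6.48 over libraries on CQN values), and SLC41A1, a magnesium exporter of the plasma membrane, had 57.2, 57.5, 54.3, 55.4, 53.1, 54.5, 50.5 and 47.5 CPM. SLC41A2 (chromosome 12, 105197275 to 105322472) had 18.8, 6.58, 17.9, 17.2, 15.4, 15.99, 11.8 and 6.67 CPM, and replicates 2 and 8 were lowest on CQN values too, at 3.56 and 3.69 against 4.16 to 4.57.

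The order of SLC41A1 and SLC41A3 depended on length. SLC41A3 had 34.1 ± 5.19 and SLC41A1 11.1 ± 0.696 RPKM (SD, n = 8), with a log2 ratio of SLC41A1 to SLC41A3 of -1.60 ± 0.25 in 8 of 8 libraries. The ratio was -0.41 on CQN values and turned to 0.11 on CPM (exact sign-flip permutation p = 0.258, adjusted p = 0.258, n = 8). Of 9 other magnesium genes, 7 were detected, led by MAGT1 (41.7 RPKM), NIPA2 (33.5) and NIPA1 (9.20), with TRPM6 and CNNM1 not detected. Of 5 genes for manganese and for secretory or lysosomal pumps, 4 were detected, led by TMEM165 (63.2 RPKM), ATP2C1 (38.0) and ATP13A2 (18.3), and ATP2C2 was not.

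Of 4 zinc sensing and response genes, KEAP1 (38.2 ± 7.33 RPKM) and MTF1 (3.94 ± 0.983 RPKM, SD, n = 8) were detected, and GPR39 and TMEM163 were not. MTF1 had 39.2, 22.4, 37.1, 36.7, 30.7, 38.0, 27.6 and 18.5 CPM in replicates 1 to 8, lowest in replicates 8, 2 and 7. On CQN values its SD was 0.09. Neither KEAP1 nor MTF1 varied above the trend, and the other two were not tested. TMEM163 had 1.17 and 1.35 CPM in replicates 2 and 8 and 0.155 to 0.390 CPM in the other 6 libraries.

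The 14 gene pairs were each tested over the libraries by flipping signs, two-sided and exact. Each of the 14 ratios, those of SLC30A1 to SLC30A10, SLC39A14 to SLC39A8 and SLC11A2 to SLC11A1 included, had the same sign in 8 of 8 libraries (exact p = 0.00781, adjusted p = 0.00781 over the 14 pairs, n = 8). This is the smallest p that 8 libraries allow. No size was read from the ratios against SLC30A10, SLC39A8 and SLC11A1, since those genes lay so low that the pseudocount set it. The sign of these ratios followed from those genes being undetected, so their p-values tell no more than the detection calls.

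Variation between libraries was tested for all 11980 detected genes with the goodness-of-fit test of edgeR and its dispersion trend, which compares each gene with genes of like abundance. Of these genes 4.66% were called, and among the 33 detected members 2 were called (6.06%), a share near that background. They were SLC30A4 (adjusted p = 0.00218) and ATP7A (adjusted p = 0.00746). Another 4 members, MT2A, MT1E, SLC39A10 and SLC41A2, had an unadjusted p under 0.05, which makes 6 of 33 members beside 1572 of 11980 detected genes. The median coefficient of variation on CPM was 25.4% for the detected members and 19.2% for all detected genes. The median SD on CQN values was 0.16 for both.

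The calls changed with the adjustment for length, over all genes as well as among the members. The offsets below called 734 of 11636 genes, or 769 with canonical lengths. Of the 558 genes called without an offset, 257 and 260 were kept. Among the 33 members these offsets called 3 and 1. With an offset for each library's trend on length and GC content, the adjusted p of ATP7A was 1 and that of SLC30A4 was 0.0120. The same offset brought in SLC39A14 (adjusted p = 1.50e-08) and SLC30A1 (adjusted p = 0.0233), which had 0.983 and 0.474 without it. The canonical transcripts of SLC30A1, SLC30A4 and SLC39A14 are longer than the lengths used inside the deposited span, at 5893, 7110 and 4663 nt against 2018, 4234 and 1706 nt. With canonical lengths in the offset, SLC39A14 alone was called (adjusted p = 0.00959), and SLC30A1 and SLC30A4 had 1 and 0.167. Without replicates 2, 7 and 8, ATP7A had 0.523 and SLC30A4 had 1.00, and MT1E was called instead (adjusted p = 0.00732), with 106 CPM in replicate 5 against 68.1 to 76.7 in the other 4.

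Replicate 8 had the steepest length slope. Across the 33 detected members, the deviation of replicate 8 from the gene mean of log2(CPM + 0.1) fell with log2 transcript length (Pearson's r = -0.73), beside r = -0.56 over 11636 detected genes with a length. On CQN values r was -0.09 for the members and -0.00352 for all. These correlations are across genes of 1 library, which share that library's length slope and are not independent. Replicate 8 was the lowest library for 14 of the 33 members and the highest for 10 on CPM, against 31.1% and 36.0% of all detected genes. On CQN values it was the lowest for 9 (27.3%) and the highest for 7 (21.2%), against 23.5% and 27.5% of all.

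**Figure D5:**
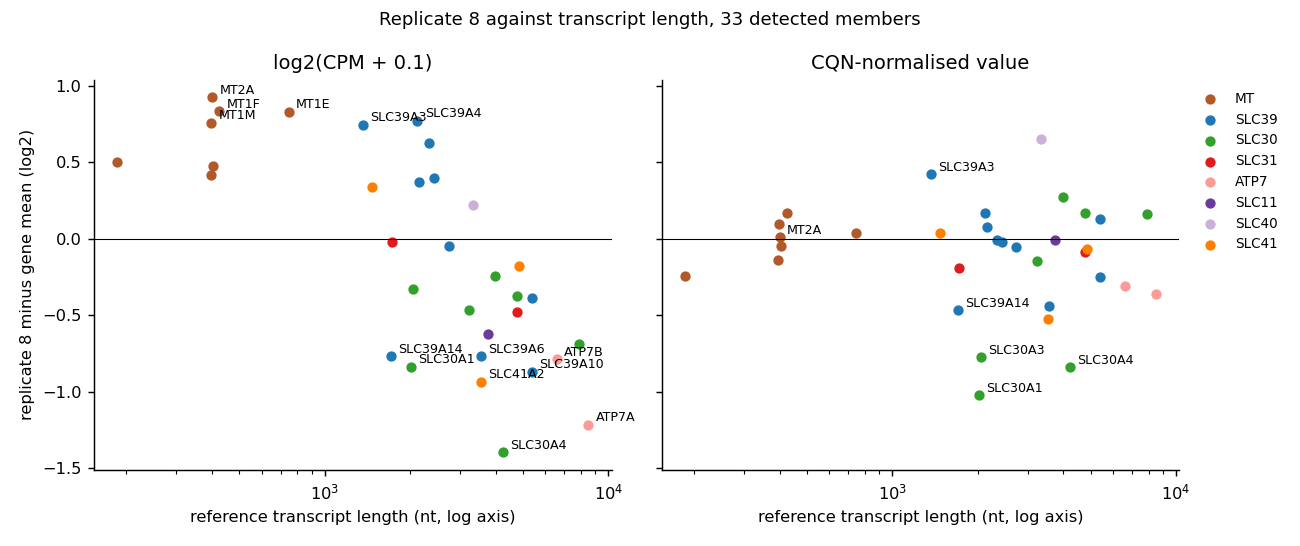
Deviation of replicate 8 from the gene mean (log2) against reference transcript length in nt (log axis) for the 33 detected members, coloured by family, on log2(CPM + 0.1) at left and CQN values at right. At left the metallothioneins lie above 0 and ATP7A and SLC30A4 lowest (r = -0.73), and at right SLC30A1, SLC30A4 and SLC30A3 lie lowest with no trend on length (r = -0.09).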

How the data were processed

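Polyadenylated RNA of 8 hCMEC/D3 replicates was sequenced with TruSeq v2 libraries, per the labels. The submitters' processing notes name CASAVA 1.9, TopHat2 2.0.6, HTSeq and hg19. Strand setting and annotation are not given in the sources used here. Per the file headers, the table the authors deposited holds raw counts. All 186768 were even (0 odd). The deposited CQN values, made by the authors per the file headers, have the range of log2 values and were given for 13962 genes. All 16 value columns were matched by replicate number, leaving 0 others.

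CPM used TMM-scaled library sizes (edgeR 4.0.16, R 4.3.3, DESeq2 1.42.0 in alternatives). RPKM used the GENCODE 44 (GRCh37) transcript nearest to the deposited gene ends, clipped to them, for 21467 genes (19461 by symbol, 2006 by synonym), including 11636 detected genes. Deposited starts count from 0 and coordinates are printed 1-based.

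Calls of variation used the goodness-of-fit test in edgeR (trended dispersion, Benjamini-Hochberg adjusted p under 0.05) over all detected genes. In simulated counts without any change it called 0 of 11826 genes. Of genes raised 4-fold in 1 library 82 of 96 were called, and of those raised 2-fold 8 of 100. The simulated counts were drawn from the same dispersion trend that the test uses, with independent libraries and no length slopes. They therefore cannot show how often the test calls genes wrongly in the real libraries. Shifts shared by more than 1 library were not simulated. Ratios used a pseudocount of 0.1 and an exact sign-flip permutation test over 256 sign patterns.

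All members are accounted for. Values in all libraries are given for the 2 highest of each family, detected metallothioneins, detected pair genes and called genes, and further carriers, MTF1 and the promoters of MT1X, MT1H and SLC30A1 were chosen after values were seen. Members, lists and pairs were chosen with earlier results of these data known.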

Additional observations from a re-analysis of the deposited data

How the results depend on the processing

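No paired analysis was possible because all 8 samples form 1 group. The count of genes above the variation trend was 558, or 2811 with the DESeq2 fitted trend and 297 without replicates 2, 7 and 8 (62 shared with the 558), and from 381 to 491 with each replicate left out in turn. Of the 33 members tested 2 were called, beside 558 of 11980 genes. With the DESeq2 fitted trend 14 members were called, beside 2811 of 11980 genes. Without replicates 2, 7 and 8 it was 1 member, beside 297 of 12275 genes. The length and GC offset called 3 members, beside 734 of 11636 genes. On canonical lengths, an alternative chosen after seeing the data, that offset called 1 member, beside 769 of 11636 genes. Without replicates 2, 7 and 8 the 14 log2 ratios kept their sign with exact permutation p = 0.0625 (n = 5), the smallest that 5 libraries allow. They were 6.03 (MT2A to MT1X), 3.52 (MT2A to MT1E), 7.72 (SLC30A1 to SLC30A10), 0.38 (SLC30A5 to SLC30A6), 0.94 (SLC30A5 to SLC30A7), 8.59 (SLC39A14 to SLC39A8), -1.45 (SLC39A10 to SLC39A6), 1.80 (SLC39A7 to SLC39A13), 6.47 (SLC11A2 to SLC11A1), 4.12 (SLC11A2 to SLC40A1), 1.39 (SLC31A1 to SLC31A2), 1.63 (ATP7A to ATP7B), -1.44 (SLC41A1 to SLC41A3) and -1.99 (SLC30A1 to SLC39A14). The values against SLC30A10 (0 counts in all 5 of these libraries), SLC39A8 and SLC11A1 are set by the pseudocount and are no measure of size: over 8 libraries a pseudocount of 1 gave 4.19, 6.03 and 3.57 in place of 7.42, 8.50 and 6.17. On CPM with no length, SLC30A5 to SLC30A7 was 0.13 and SLC41A1 to SLC41A3 turned to 0.11. Another 230 alternative values stayed on the same side of the threshold (ratios), within 1.5 times (counts) or within 1 SD (summed metallothionein level). The last included a mean of 633 CPM without replicates 2, 7 and 8 against 847 CPM over all libraries. Counts within 1.5 times need not hold the same genes. Of the 734 called with the length and GC offset, 257 were shared with the 558. Among the members ATP7A was no longer called there, and SLC39A14 and SLC30A1 came in. Depth limits only the lowest members, since 1 read pair is at most 0.0293 CPM.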

Other observations

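A search for genes with the pattern of MT1H, with a rule set after seeing it (at least 2 CPM in both replicates 2 and 8 and at most 0.2 CPM in every other library), found 3 genes, MT1H included. C5orf38 (chromosome 5, 2752262 to 2755511) had 13.2 CPM in replicate 2, 5.68 CPM in replicate 8 and no counts in the other 6 libraries. LOC284801 (chromosome 20, 26167655 to 26189869) had 2.06 and 2.58 CPM in replicates 2 and 8 and 0.0259 to 0.140 CPM elsewhere. The 3 genes lie on different chromosomes.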
